A study of Mus musculus with 4 samples.

Results

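The regions described here are the p63 peaks that share at least 1 base with a peak of acetylated histone H3 lysine 27 (H3K27ac) in mouse salivary gland epithelial progenitor cells. They were chosen by position alone, from the start and end of every peak in both lists, and there were 1439 of them among 4130 p63 peaks (34.8%, Wilson 95% interval 33.4 to 36.3%). They are called acetylated p63 sites below, a name for the overlap of at least 1 base and not for a measured state of the bound DNA. A neighbour called acetylated likewise meets this rule. Since the overlap chose them, that percentage describes the choice, and all further values are descriptions without a test.

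Chromatin immunoprecipitation followed by sequencing (ChIP-seq) was done on primary epithelial progenitor cells. They were taken from salivary glands of adult mice aged 12 weeks, all with wild-type p63 and no stated treatment. There were 4 libraries in 4 groups of 1: a ChIP with the mouse monoclonal antibody 4A4 against p63, its input without antibody, a ChIP with an antibody against H3K27ac, and its input. The p63 libraries are titled PSECS and the H3K27ac libraries pSG, and the labels do not say whether both came from 1 cell preparation, how many mice were pooled or which sex they were. Each ChIP library gave 1 peak list on the mm9 build. Without a second library no site can be checked in a replicate, and a p63 peak outside the H3K27ac list may still carry the mark. The depth is unknown, because the lists hold no read numbers. They also hold no gene names, so the labelled cell type could not be checked against its markers and no gene is given for a peak.

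p63 is a transcription factor of the p53 family that marks the basal cells of stratified and glandular epithelia, where it keeps progenitor cells in a proliferating, epithelial state. It binds DNA as a tetramer at paired copies of a short motif, many of them in enhancers far from genes. H3K27ac is laid down by the coactivators p300 and CBP on nucleosomes at active enhancers and promoters. A bound factor usually sits on DNA with few nucleosomes, flanked by acetylated ones. A peak caller set for narrow signals can list such a stretch as several short peaks.

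Most acetylated p63 sites crossed an edge of an acetylated peak and did not lie wholly within it. Of the 1439 sites, 889 (61.8%, interval 59.2 to 64.3%) crossed 1 edge of a single H3K27ac peak, with one end inside and the other outside. A smaller group of 404 sites (28.1%, interval 25.8 to 30.4%) lay wholly inside 1 H3K27ac peak. A further 129 (8.96%, interval 7.60 to 10.6%) touched 2 H3K27ac peaks and spanned the gap between them, and 17 (1.18%, interval 0.739 to 1.88%) covered a whole H3K27ac peak and reached past it on both sides. No site touched more than 2. The median site shared 116 bases with H3K27ac (quartiles 58 and 164), or 57.7% of its length. The midpoint of the p63 peak, the best guide to the bound position in a list without summits, was inside H3K27ac at 775 sites (53.9%, interval 51.3 to 56.4%). Here and below, intervals cover counting error only and treat peaks as independent.

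These classes depend on how finely H3K27ac was cut into peaks. The smallest gap between neighbours in the H3K27ac list was 52 bases. When H3K27ac peaks at most 200 bases apart were joined, 48.4% of the overlapping p63 peaks lay wholly inside, and with 1000 bases 80.7% did. Of the 889 sites that crossed 1 edge, 170 (19.1%) lay wholly inside once gaps of at most 200 bases were closed and 548 (61.6%) once gaps of at most 1000 bases were. Of the 129 sites that touched 2 peaks, 117 (90.7%) lay inside a single stretch after the shorter joining. With the longer joining, then, most sites counted at an edge lay within a longer acetylated stretch.

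**Figure D1:**
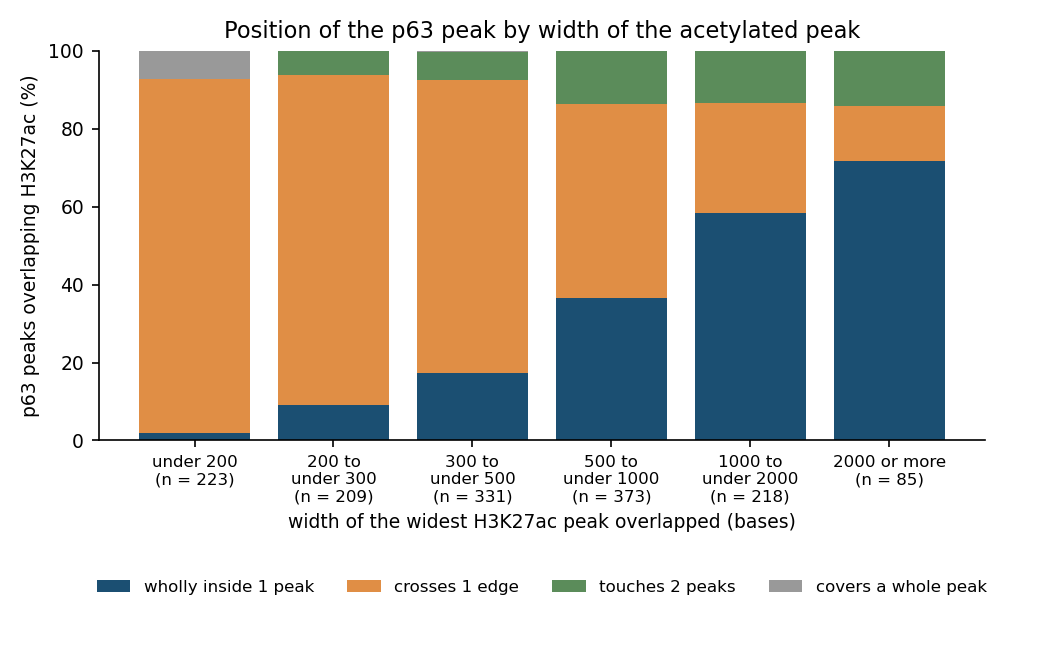
Position of the p63 peak, as percent of sites (y axis), for 6 classes of width of the widest H3K27ac peak that the site overlaps (x axis, bases). Colours mark the 4 positions and n is the number of sites. The part wholly inside grows from 1.79% under 200 bases to 71.8% at 2000 bases or more.

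The division went with the width of the acetylated peak, as the plot of position by width shows. The widest H3K27ac peak at a site was 471 bases wide at the median (quartiles 254.5 and 886.5, range 150 to 6859), whereas the H3K27ac list as a whole had a median of 191. At the 223 sites on an H3K27ac peak under 200 bases, 4 (1.79%) lay wholly inside and 203 (91.0%) crossed 1 edge. That is a matter of geometry, since the median acetylated p63 site was 198 bases wide itself. A wider peak also leaves more room to lie inside, so the trend over the classes follows in part from geometry. At the 373 sites on a peak of 500 to under 1000 bases, 136 (36.5%) lay inside and 186 (49.9%) crossed an edge. At the 85 sites on a peak of 2000 bases or more, 61 (71.8%, interval 61.4 to 80.2%) lay inside, 12 crossed an edge and 12 touched 2 peaks.

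The H3K27ac peaks at these sites were mostly not the short ones that make up much of the list. In all, 1542 H3K27ac peaks (0.839% of 183757) shared a base with p63. Of these, 68 (4.41%, interval 3.49 to 5.55%) were only 150 bases wide, the minimum of the list, against 21.7% of all H3K27ac peaks. Another 299 (19.4%, interval 17.5 to 21.4%) were 1000 bases or wider, against 1.91% of all. A wide peak offers more bases to overlap, so these shares follow in part from the rule. For comparison, the H3K27ac peak nearest to each of the 1386 p63 peaks that shared no base but had H3K27ac within 1 kb was 223 bases wide at the median (quartiles 172 and 331.8).

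The 404 sites wholly inside lay in the widest acetylated peaks, whose median was 952.5 bases (quartiles 568.5 and 1561). The class favours such peaks, since a site can lie inside only a peak at least as wide as itself. Their midpoints were a median of 269 bases from the nearer edge (quartiles 144 and 465). To compare peaks of different width, depth was counted from 0% at the edge of the H3K27ac peak to 100% at its centre. Over all 775 sites with a midpoint inside H3K27ac, 27.2% were in the outermost band of 0 to 20% and 16.8% in the innermost band of 80 to 100%. In H3K27ac peaks of 1000 bases or wider, which held 220 midpoints, the 5 bands from edge to centre held 18.6%, 14.1%, 20.9%, 25.5% and 20.9%. In these wide peaks the midpoints were thus spread over the whole depth, and the intervals of the outermost (14.1 to 24.3%) and innermost band (16.1 to 26.8%) overlapped. The spread leaned slightly to the centre, with 95 of the 220 (43.2%, interval 36.8 to 49.8%) in the outer 50% of the depth.

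The widest acetylated peaks show this spread at single sites. The p63 peak chr9:106273487-106273737 (251 bases) began 3165 bases from the nearer edge of an H3K27ac peak of 6859 bases at chr9:106270322-106277180, near its centre. The H3K27ac peak chr12:8785182-8790962 (5781 bases) held 2 sites, chr12:8789026-8789186 and chr12:8789431-8789640, with midpoints 429 bases apart and both on the higher-coordinate side of its centre. At chr4:150243547-150247579 (4033 bases) there were again 2 sites, and chr4:150245444-150245596 was at 97.9% of the depth while chr4:150246050-150246287 was at 70.0%. Others lay nearer to an end. At chr2:32734037-32738090 (4054 bases) the site chr2:32734128-32734398 began 91 bases from the edge. At chr14:55049375-55053852 (4478 bases) the site chr14:55052912-55053114 ended 738 bases from the edge, with its midpoint at 37.5% of the depth. The site chr7:19949239-19949499 crossed the edge of the H3K27ac peak chr7:19945217-19949342 (4126 bases) and reached the next one.

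Sites nearest the centre of a wide peak were found in several widths of peak. In H3K27ac peaks of at least 1000 bases, the 3 most central sites were chr2:35125529-35125747 (99.5% of the depth, in a peak of 3214 bases), chr3:58998168-58998326 (99.4%, in 1592 bases) and chr6:86169755-86169992 (99.4%, in 1290 bases). Each was 849841 bases or more from the next acetylated p63 site.

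**Figure D2:**
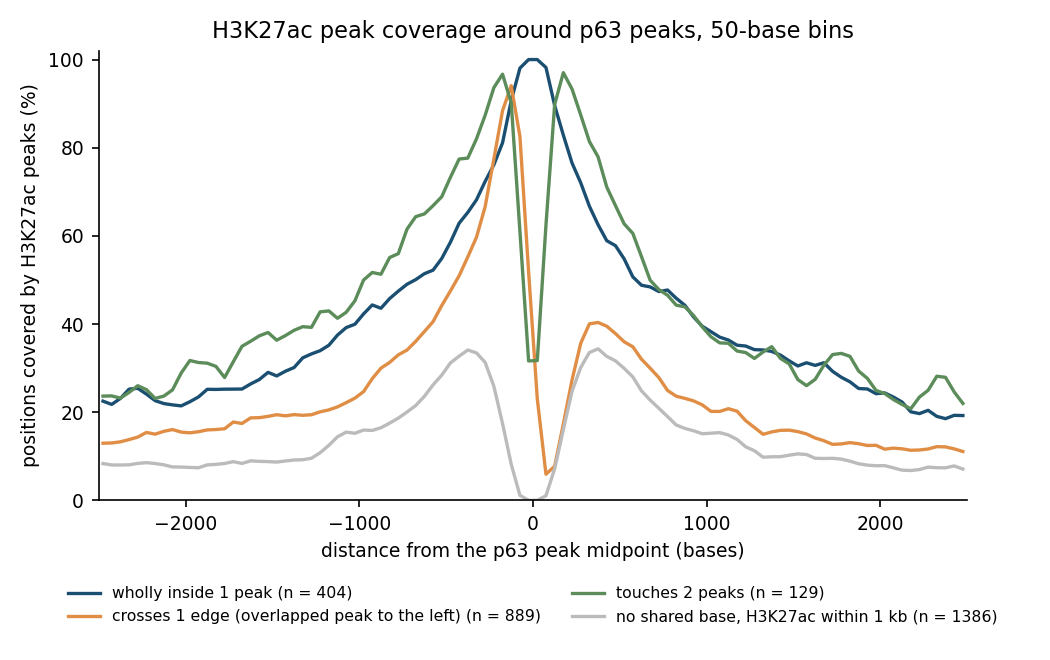
Percent of positions covered by H3K27ac peaks (y axis, 50-base bins) against distance from the p63 midpoint (x axis, bases) for sites wholly inside (404), crossing 1 edge (889, turned so that the overlapped peak is to the left), touching 2 peaks (129) and p63 peaks without overlap but with H3K27ac within 1 kb (1386). Lines are means over sites without error bars. Sites crossing an edge fall to 5.91% just right of the midpoint and rise again to 40.4%.

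Beyond the crossed edge, acetylation often returned at a short distance. The 889 sites that crossed 1 edge were turned so that the overlapped H3K27ac peak lay to the left, and coverage by H3K27ac peaks was averaged in bins of 50 bases. Coverage was 94.1% between 100 and 150 bases left of the p63 midpoint and 51.9% in the last 50 bases before it. To the right it fell to 5.91% between 50 and 100 bases and rose to 40.4% between 350 and 400 bases. Between 1000 and 2500 bases it averaged 17.3% on the left and 14.3% on the right. The class fixes the trough, since these sites must end outside H3K27ac, but not the height of the second shoulder. Such a shoulder was not particular to these sites. The p63 peaks without overlap, chosen for H3K27ac within 1 kb, reached 34.4% between 350 and 400 bases on the higher-coordinate side.

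Over all 889 sites, a next H3K27ac peak lay within 1000 bases more often beyond the crossed edge than beyond the opposite edge. The gap beyond the crossed edge, up to the next H3K27ac peak, had a median of 487 bases (quartiles 236 and 3605), and the gap beyond the opposite edge of the same peak had a median of 895 (quartiles 193 and 5213). Gaps of at most 500 bases lay beyond the crossed edge at 449 sites (50.5%, interval 47.2 to 53.8%) and beyond the opposite edge at 368 (41.4%, interval 38.2 to 44.7%). Gaps of at most 1000 bases lay beyond the crossed edge at 548 (61.6%, interval 58.4 to 64.8%) and beyond the opposite edge at 466 (52.4%, interval 49.1 to 55.7%). Site by site, however, the gap at the crossed edge was the shorter at 447 and the longer at 442. The crossed gap must also hold the overhanging part of the p63 peak, a median of 115 bases, or the site would count as touching 2 peaks. Both gaps were wider than the longest overhang (495 bases) at 292 sites. There the crossed gap was the shorter at 144 (49.3%, interval 43.6 to 55.0%). Among these, gaps of at most 1000 bases lay beyond the crossed edge at 50 (17.1%) and beyond the opposite edge at 47 (16.1%), so the edges were nearly alike. Counting both sides of all H3K27ac peaks, gaps of at most 500 bases made up 17.3%, and for those 300 to under 500 bases wide 33.2%. The sites crossed the lower-coordinate edge in 465 cases and the higher-coordinate edge in 424 (47.7%, interval 44.4 to 51.0%).

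The 129 sites that touched 2 H3K27ac peaks spanned short gaps. The gaps had a median of 104 bases (range 52 to 253), and the p63 midpoint lay in the gap at 99 sites (76.7%, interval 68.7 to 83.2%). The median distance from the p63 midpoint to the centre of the gap was 28 bases. At the other 30 sites the midpoint lay inside H3K27ac. A site of this class must span the whole gap, which by itself keeps its midpoint near the gap. These p63 peaks were wide, with a median of 250 bases (quartiles 217 and 291), as they had to be to reach both sides. The H3K27ac peaks on either side were also wide, a median of 743 bases for the wider and 370 for the narrower. In the coverage profile these sites fell to 31.6% in the 50 bases left of the midpoint, between a mean of 67.6% from 200 to 1000 bases to the left and 60.6% to the right.

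The 17 sites that covered a whole H3K27ac peak had the narrowest acetylated peaks and wide p63 peaks. The H3K27ac peaks had a median of 150 bases and a maximum of 315. The p63 peaks had a median of 276 bases, and by definition of the class none can be narrower than the peak it covers. Another p63 peak within 10 kb was found at 0 of the 17, with an upper Wilson bound of 18.4%. That range holds the 14.5% of all p63 peaks, so 17 sites are too few to tell the class apart.

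p63 peak width itself differed between the classes. The median was 181 bases at sites wholly inside, equal to that of all 4130 p63 peaks, 198 at sites crossing an edge, and 250 and 276 in the other classes. The acetylated p63 sites together had a median of 198 bases, which is 25 more than the 173 of the other p63 peaks. A wider p63 peak meets H3K27ac more often, so this difference follows in part from the rule. When the midpoint had to lie inside H3K27ac the difference was 8 bases. Across the 1439 sites, p63 width and the width of the acetylated peak were hardly related (Spearman rho = 0.078). Among the 404 sites wholly inside, rho was 0.185. The classes differ in which widths they allow, so the value over all sites mixes them.

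The widest p63 peaks of the group had different surroundings. The widest, chr5:113582047-113582593 (547 bases), was within an H3K27ac peak of 1561 bases with 8 other H3K27ac peaks within 5 kb, and the next, chr7:26060741-26061263 (523 bases), in one of 2896 bases with 7 others. The site chr4:117795758-117796264 (507 bases) shared 12 bases with an H3K27ac peak of 311 bases and had no other within 5 kb. The site chr4:123265928-123266433 (506 bases) shared 145 bases with a peak of 269 bases and had 8 others nearby. The site chr17:84298987-84299440 (454 bases) lay inside a peak of 886 bases.

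At the threshold of the rule, sites inside and outside it differed by few bases. There were 60 sites that shared 10 bases or fewer with H3K27ac, and 75 other p63 peaks ended 10 bases or fewer away from it, of which 11 abutted an H3K27ac peak with 0 bases between. The sites chr3:51142189-51142337, chr4:139151261-139151380 and chr5:31548679-31548798 each shared 1 base, with H3K27ac peaks of 168, 232 and 150 bases. They had 6, 14 and 3 other H3K27ac peaks within 5 kb. Just outside, chr4:95598084-95598284, chr4:155164752-155165143 and chr5:31867338-31867501 abutted an H3K27ac peak and had 3, 4 and 11 H3K27ac peaks within 5 kb.

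**Figure D3:**
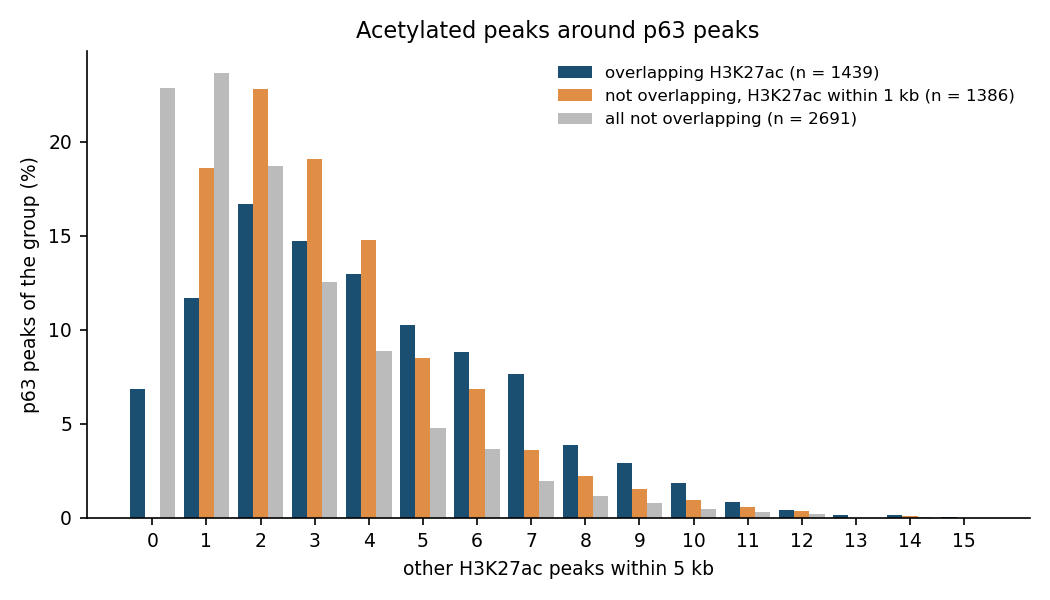
Percent of p63 peaks (y axis) by number of H3K27ac peaks within 5 kb that they do not overlap (x axis), for the 1439 acetylated p63 sites, the 1386 p63 peaks without overlap but with H3K27ac within 1 kb, and all 2691 p63 peaks without overlap. The acetylated sites have a median of 4 and the other 2 sets medians of 3 and 2.

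Acetylated p63 sites stood among more further H3K27ac peaks than the other p63 peaks did. Leaving out the peaks a site overlaps, the median was 4 H3K27ac peaks within 5 kb of either end (quartiles 2 and 6, range 0 to 15). It was 2 (quartiles 1 and 3) for the 2691 other p63 peaks and 3 (quartiles 2 and 4) for the 1386 of those with H3K27ac within 1 kb. There were 5 or more around 533 sites (37.0%, interval 34.6 to 39.6%), against 21.6% of all p63 peaks and 342 of the 1386 (24.7%). There were 0 around 99 sites (6.88%, interval 5.68 to 8.31%), against 17.3% of all p63 peaks. The other H3K27ac peaks within 5 kb covered a median of 1025 bases around acetylated sites, 696.5 around the 1386 and 355 around all other p63 peaks.

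The order of these counts depended on whether H3K27ac peaks were joined. With H3K27ac peaks at most 200 bases apart joined, overlapping p63 peaks had a mean of 2.61 other acetylated stretches within 5 kb, all other p63 peaks 1.93, and those with H3K27ac within 1 kb 2.95, so the order against the last of these turned. With 1000 bases the means were 0.915, 1.27 and 1.97, and the order turned against both. Within 2 kb, without joining, the overlapping peaks had a mean of 2.02 and the other p63 peaks with H3K27ac within 1 kb a mean of 2.16. With only H3K27ac peaks of at least 300 bases, these means were 1.97 and 2.22. The higher count around acetylated sites than around the p63 peaks near H3K27ac was thus not kept under these settings. The count leaves out the stretch a site overlaps but includes the one nearest to a p63 peak without overlap. Joining also takes neighbours of a site into the stretch left out, so these turns follow in part from the counting. With overlapped H3K27ac peaks counted, and without joining, acetylated sites had a mean of 5.03. All other p63 peaks had 2.21 and those with H3K27ac within 1 kb 3.42. That count was not made with joining.

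Read the other way, and without joining, p63 peaks with more H3K27ac peaks around them mostly overlapped one more often. With 0 other H3K27ac peaks within 5 kb, 99 of 714 p63 peaks (13.9%, interval 11.5 to 16.6%) were acetylated sites. With 2 it was 240 of 744 (32.3%, interval 29.0 to 35.7%) and with 5 or 6 it was 275 of 502 (54.8%, interval 50.4 to 59.1%). With 7 to 9 it was 208 of 313 (66.5%, interval 61.1 to 71.5%) and with 10 to 15 it was 50 of 77 (64.9%, interval 53.8 to 74.7%), so the share did not rise further. These shares were not counted with H3K27ac peaks joined, so whether the rise is kept under joining was not tested. With the longer joining, overlapping p63 peaks had the lower mean count of other stretches (0.915, against 1.27 for all other p63 peaks). That count leaves out the stretch they overlap. On both sides within 5 kb, 924 sites (64.2%) had other H3K27ac peaks without joining, and 416 (28.9%) had them on 1 side only. Over all p63 peaks the shares were 47.1% and 35.6%. For the p63 peaks without overlap but with H3K27ac within 1 kb they were 62.3% and 37.7%, so flanking on both sides was nearly as frequent there.

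Most of the sites lay in stretches of several H3K27ac peaks. When H3K27ac peaks at most 1000 bases apart were taken as 1 domain, the 1439 sites lay in domains with a median of 3 H3K27ac peaks (quartiles 2 and 5) and a median span of 1900 bases. Domains of 3 or more H3K27ac peaks held 851 sites (59.1%, interval 56.6 to 61.7%) and 20.9% of all H3K27ac peaks. Domains of 10 or more held 96 sites (6.67%, interval 5.49 to 8.08%) and 1.63% of all H3K27ac peaks. By contrast, 277 sites (19.2%) were on an H3K27ac peak that stood alone, as 62.3% of all H3K27ac peaks do. These comparisons go by number of H3K27ac peaks and not by bases, and wider peaks offer more bases to overlap. In the domains of 3 or more, 428 of the 851 sites (50.3%, interval 46.9 to 53.6%) overlapped the widest H3K27ac peak of the domain, which held a median of 39.9% of its acetylated bases. In domains of 6 or more peaks it was 116 of 310 (37.4%, interval 32.2 to 42.9%). Measured from 0% at the end of the domain to 100% at its centre, the median depth of the p63 midpoint was 56.4%, and 8.70% of midpoints were in the outermost band of 0 to 20%. Another 32 midpoints (3.76%) lay outside the domain and entered that median with a depth below 0.

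Of the 5 sites with the most other H3K27ac peaks nearby, 4 were at the edge of a peak under 500 bases wide. The site chr12:77656082-77656225 had 15 within 5 kb, 9 on the lower-coordinate side and 6 on the higher. It shared 29 bases with an H3K27ac peak of 425 bases. The sites chr4:139151261-139151380 and chr7:109627918-109628138 had 14 each and overlapped H3K27ac peaks of 232 and 325 bases. The sites chr5:125627599-125627769 and chr9:43581693-43581860 had 13 each, the first inside a peak of 1162 bases and the second at the edge of one of 484 bases. Of the 50 sites with 10 or more, 35 crossed an edge and 9 lay inside.

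The 99 acetylated sites with 0 other H3K27ac peaks within 5 kb were on narrower peaks. Their widest overlapped H3K27ac peak had a median of 236 bases (quartiles 168 and 472.5, maximum 2468). At 73 of them (73.7%, interval 64.3 to 81.4%) the p63 peak crossed 1 edge and at 19 it lay inside. Their p63 peaks were of ordinary width, a median of 193 bases. Another p63 peak lay within 10 kb at 6 of them (6.06%, interval 2.81 to 12.6%), and at 21 of the 50 sites with 10 or more H3K27ac peaks around them (42.0%, interval 29.4 to 55.8%).

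**Figure D4:**
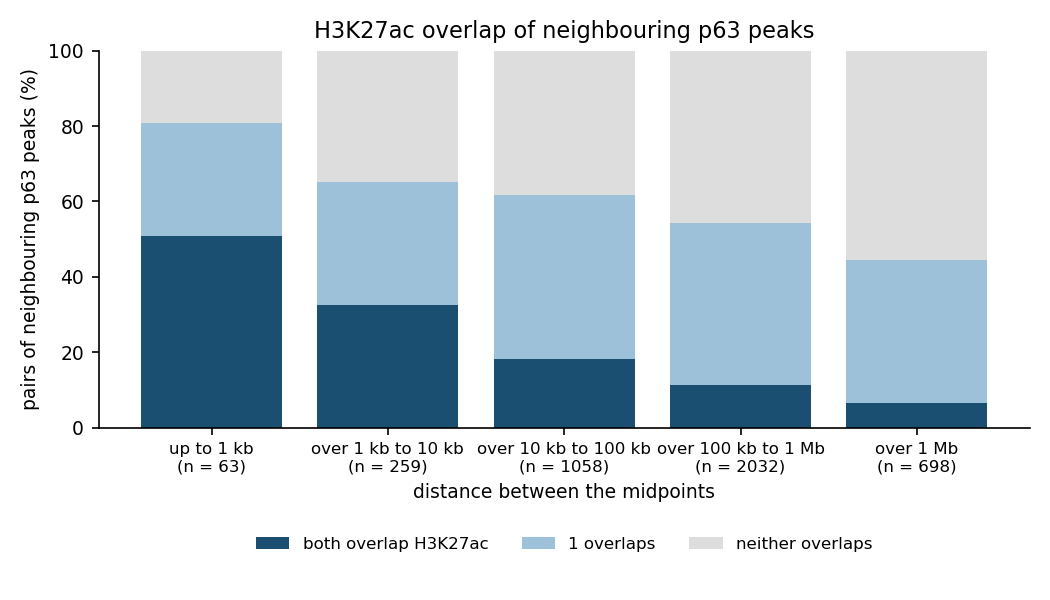
Pairs of neighbouring p63 peaks on a chromosome (y axis, percent of pairs) by distance between their midpoints (x axis), split by whether both, 1 or neither overlap H3K27ac. Both overlap in 50.8% of the 63 pairs up to 1 kb apart and in 6.59% of the 698 pairs over 1 Mb apart.

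Acetylated p63 sites were closer to other p63 peaks than the rest. Between midpoints, the nearest other p63 peak of any kind was a median of 49.1 kb away from an acetylated site and 109 kb away from any other p63 peak. Another p63 peak lay within 10 kb at 314 sites (21.8%, interval 19.8 to 24.0%), against 14.5% of all p63 peaks and 285 of the 2691 others (10.6%, interval 9.48 to 11.8%). Of the 1386 p63 peaks without overlap but with H3K27ac within 1 kb, 190 had one (13.7%, interval 12.0 to 15.6%). Sites wholly inside had one at 123 of 404 (30.4%, interval 26.2 to 35.1%) and sites crossing an edge at 155 of 889 (17.4%, interval 15.1 to 20.1%). The nearest other acetylated site was a median of 173 kb away, with quartiles at 28.3 and 656 kb.

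Close neighbours of acetylated sites were more often acetylated than distant ones. Of 63 pairs of neighbours up to 1 kb apart, both overlapped H3K27ac in 32, 1 did in 19 and neither in 12. From over 1 kb to 10 kb both did in 84 of 259 pairs (32.4%), from over 10 kb to 100 kb in 193 of 1058 (18.2%), from over 100 kb to 1 Mb in 227 of 2032 (11.2%) and beyond 1 Mb in 46 of 698 (6.59%, interval 4.98 to 8.68%). Put per acetylated site, the neighbour on a given side was also acetylated in 77.1% of cases up to 1 kb, 66.4% from over 1 kb to 10 kb, 45.6% up to 100 kb, 34.1% up to 1 Mb and 25.8% beyond. Over all p63 peaks 34.8% were acetylated sites. A single H3K27ac peak can serve both neighbours. It did so in 22 of the 32 pairs up to 1 kb and 4 of the 84 pairs from over 1 kb to 10 kb, and without these pairs the neighbour was acetylated in 51.3% and 65.3% of cases.

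In total 26 H3K27ac peaks were touched by 2 sites and none by more. The sites sharing a peak had midpoints a median of 574 bases apart (range 241 to 1903), on H3K27ac peaks with a median of 1100 bases. The first of them in genome order were chr1:134916184-134916805 (622 bases), chr1:195340289-195340714 (426), chr2:132770561-132771570 (1010), chr4:150243547-150247579 (4033) and chr5:28956966-28957238 (273). The closest pair of all, chr14:26234421-26234612 and chr14:26234698-26234817, had midpoints 241 bases apart. They sat on opposite edges of 1 H3K27ac peak of 274 bases at chr14:26234526-26234799.

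Longer runs were rare. With acetylated sites at most 10 kb apart joined into runs, 1216 sites stood alone, 98 runs held 2 sites, 7 held 3 and 1 held 6. The run of 6 spanned 14.1 kb at chr1:195334554-195348604, where 13 H3K27ac peaks covered 10696 bases and no other p63 peak lay between. Its first site, chr1:195334554-195334699, was within a peak of 3582 bases and its last, chr1:195348361-195348604, inside one of 2696. The site chr1:195340633-195340820 touched 2 peaks. The other sites, chr1:195340223-195340392, chr1:195344222-195344410 and chr1:195346239-195346521, each crossed the edge of a peak of 426, 847 and 765 bases. The ends of this run were thus wholly inside acetylated peaks and the sites between them were at edges.

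The runs of 3 named here, the first in genome order, differed in build. At chr7:26060108-26064918 all 3 sites lay wholly inside, 2 of them in the peak of 2896 bases that also holds the site of 523 bases named above, and the last in one of 2806 bases. H3K27ac peaks covered 4363 of the 4811 bases. At chr7:56808918-56818006 there was 1 site of each kind, inside, at an edge and touching 2 peaks, and 10 H3K27ac peaks covered 7200 of 9089 bases. At the other extreme, chrX:94571794-94572098 was the site farthest from any other acetylated site on its chromosome, at 19.53 Mb, and lay inside an H3K27ac peak of 813 bases.

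**Figure D5:**
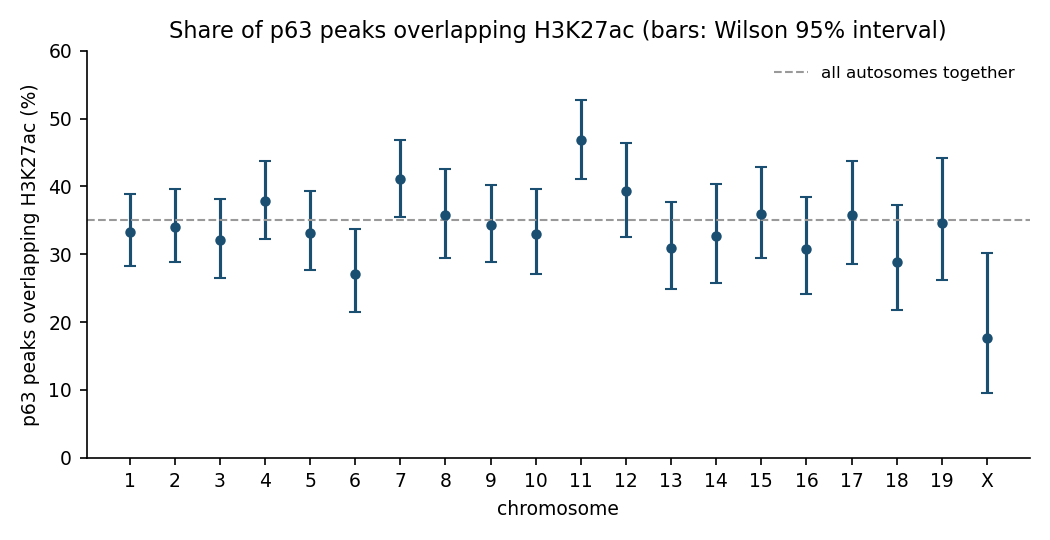
Share of p63 peaks that overlap H3K27ac (y axis, percent) for each chromosome (x axis). Points are shares, bars Wilson 95% intervals, and the dashed line the 35.1% of all autosomes together. Chromosome 11 is highest at 46.9% and chromosome X lowest at 17.6%.

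Acetylated sites were found on every chromosome in the lists. The number ran from 36 on chromosome 19 to 128 on chromosome 11 among the 19 autosomes, with 9 on chromosome X. As a share of the p63 peaks of a chromosome it ran from 27.1% on chromosome 6 (54 of 199, interval 21.4 to 33.7%) to 46.9% on chromosome 11 (128 of 273, interval 41.1 to 52.8%), with a value of 35.1% over all autosomes. The intervals of 16 of the 19 autosomes held that value. The exceptions were chromosome 6 below it and chromosomes 7 (41.1%, interval 35.5 to 46.9%) and 11 above it. On chromosome X it was 9 of 51 (17.6%, interval 9.57 to 30.2%).

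Relative to the H3K27ac list, chromosome 11 was again highest and chromosome X lowest. Per 1000 H3K27ac peaks there were 10.3 acetylated sites on chromosome 11, a median of 7.53 over the autosomes, 5.61 on chromosome 6 and 1.80 on chromosome X. The median width of the acetylated peak ran from 343.5 bases on chromosome 3 to 625 on chromosome 15 and was 345 on chromosome X. The median number of other H3K27ac peaks within 5 kb was between 2 and 4 on each autosome and 2 on chromosome X. The share of sites wholly inside ran from 20.4% on chromosome 6 to 40.0% on chromosome 15. The median distance from 1 acetylated site to the next along a chromosome ran from 314 kb on chromosome 15 to 1150 kb on chromosome 6 and was 3798 kb on chromosome X. The 9 sites on chromosome X comprised 3 inside and 6 at an edge, on H3K27ac peaks of 150 to 813 bases, and none had another p63 peak within 10 kb.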

How the data were processed

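The data are 2 deposited peak lists with 3 columns each (chromosome, start, end), a kind of value that is only a position in bases. Per the submitters' processing notes, the authors used Bowtie 1.1.1, MACS2 2.1.0 and the mm9 build. Their settings and peak threshold are unknown here. Each list is 1 ChIP library against 1 input, per the labels. Starts are printed counted from 1.

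A p63 peak was taken where it shared at least 1 base with any H3K27ac peak. Counts within 5 kb run from the ends of the p63 peak and leave out H3K27ac peaks it overlaps. Spacing is between midpoints. No test was run, because there is 1 library per antibody. Shares carry Wilson 95% intervals. Measures were checked on simulated data against base-by-base counting. The sites, classes and comparisons were chosen with earlier results of these data known. Named sites followed fixed rules: widest H3K27ac peak, most H3K27ac peaks within 5 kb, widest p63, nearest the threshold, most central, closest, longest runs and most distant, with ties in genome order. No mm9 sequence or annotation was used here, so the planned counts of p63 motifs and gene starts were not made. Tools were matplotlib 3.10.9, scipy 1.17.1, pandas 2.3.3, numpy 2.4.6 and Python 3.11.15.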

Additional observations from a re-analysis of the deposited data

How the results depend on the processing

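A value counted as moved when it left the 95% interval of the reported one, for the number of sites when it changed over 1.5 times, and for the span over autosomes when the lowest or highest left its interval; 46 of 93 alternatives moved a value. Asking for most of the p63 peak to be covered, for its midpoint inside H3K27ac, or for H3K27ac within 200 bases gave 819, 775 and 2215 sites, of which 49.3%, 52.1% and 18.2% lay wholly inside, and autosomes then spanned 17.5, 16.02 and 17.4 percentage points. With the first and the second of these, the acetylated peak had a median of 612 and 591 bases, another site lay within 10 kb at 13.1% and 12.4%, and the p63 width difference was 10 and 8 bases. The median acetylated width was not computed for the last of them. With H3K27ac peaks of at least 300 bases only, 37.8% lay inside, 58.6% had the midpoint inside, 7.45% touched 2 peaks, and the medians were 678 bases and 2 other peaks, with an autosome span of 18.1. Joining H3K27ac peaks at most 200 or 1000 bases apart put 48.4% and 80.7% inside, 65.7% and 88.1% of midpoints inside, gave medians of 770 and 1898 bases and of 2 and 1 other peaks, and left 0.623% and 0% touching 2; the longer joining gave an autosome span of 18.5. The wider p63 peaks alone gave 883 sites, 22.8% inside, 46.8% with the midpoint inside, 13.5% touching 2, 8.27% with another site within 10 kb and an autosome span of 20.5. Windows of 2 and 10 kb gave medians of 2 and 6 other peaks, and counting overlapped peaks 5. Neighbours within 5 and 50 kb were 11.5% and 32.2%. The first rows of the H3K27ac list, added after seeing the data, gave 30.9% inside and medians of 552 bases and 2 other peaks. No paired analysis was possible because only 1 library of each kind exists in these groups.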

Other observations

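In the H3K27ac list, later rows hold narrower peaks (Spearman rho of width and row -0.44, n = 183757, a description of 1 library). Of the 1542 H3K27ac peaks at acetylated p63 sites, 756 (49.0%, Wilson 95% interval 46.5 to 51.5%) stood in the first 10% of its rows and 1286 (83.4%) in the first 50% of them. Wider peaks stand earlier and offer more bases to overlap, so these shares follow in part from the rule. What orders the rows is not known. Overlap with the first 50% of rows gave 1209 sites.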
